A study of Homo sapiens and Canis lupus familiaris with 27 samples.

Results

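The spindle assembly checkpoint genes examined here were BUB1, BUB1B, BUB3, MAD1L1, MAD2L1, TTK, CDC20, ZW10, KNTC1 and ZWILCH, 10 of the 25300 gene names found in the deposited gene count tables. They were taken by name from the first column of each table. All 10 were listed for both human cell lines and 9 for the canine cell line, where MAD2L1 was not analysed here. Every listed member passed the filter on low counts in its cell line. The RNA came from 3 established prostate adenocarcinoma cell lines, human PC-3 (from a bone metastasis), human LNCaP (from a lymph node metastasis) and canine CT1258, each grown as 1 line. Cells were exposed for 12 h or 24 h to 15 µM PDA-66, an indolylmaleimide given in DMSO, or to 0.15% DMSO for 24 h. The comparison asks how these genes responded to PDA-66 in human and canine cells. PC-3 was represented by 2 DMSO controls, 3 samples at 12 h and 3 at 24 h, and LNCaP and CT1258 by 3 samples in each of the 3 groups. Both incubation times were compared with the same 24 h controls, so at 12 h the effects of PDA-66 and of the shorter time in culture cannot be told apart.

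The spindle assembly checkpoint holds cells in mitosis until every chromosome is attached to the spindle. Unattached kinetochores recruit the kinases TTK (also called MPS1) and BUB1, the RZZ complex of KNTC1 (ROD), ZW10 and ZWILCH, and MAD1L1, which converts MAD2L1 into its active form. Active MAD2L1 joins BUB1B (BUBR1) and BUB3 to capture CDC20, the activator of the anaphase-promoting complex (APC/C), which otherwise marks cyclin B and securin for destruction. Many of these genes are transcribed mainly in late S, G2 and M phase, and agents that disturb microtubules engage the checkpoint. In bulk RNA, more cells in G2 and M phase and more RNA per cell cannot be told apart.

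Promoters of cell cycle genes often carry a CHR (cell cycle genes homology region), searched here as TTTGAA or TTCGAA, and CCAAT boxes. Of the 10 members 7 had a promoter in the RefSeq table (GRCh38.p14); BUB3, TTK and KNTC1 did not. The sequences show 4 members with a CHR near the start beside 2 without one, ZWILCH, which rose in PC-3 and CT1258, and MAD1L1, which passed in no comparison with DMSO at an adjusted p under 0.001, so that members with and without a CHR can be compared. These 6 were chosen with the values known. Each run covers 120 bases before to 30 after the transcription start, is written 5′ to 3′ on the strand of the gene, and has CHR and CCAAT letters of either strand in capitals (ATTGG is CCAAT read on the other strand). The stretches are BUB1 at chr2:110678034-110678183 (minus strand), BUB1B at chr15:40160949-40161098 (plus), MAD2L1 at chr4:120066819-120066968 (minus), CDC20 at chr1:43358861-43359010 (plus), ZWILCH at chr15:66505206-66505355 (plus) and MAD1L1 at chr7:2232916-2233065 (minus).
BUB1: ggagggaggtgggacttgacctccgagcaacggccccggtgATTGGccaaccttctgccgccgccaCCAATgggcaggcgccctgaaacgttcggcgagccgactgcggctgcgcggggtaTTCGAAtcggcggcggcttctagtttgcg
BUB1B: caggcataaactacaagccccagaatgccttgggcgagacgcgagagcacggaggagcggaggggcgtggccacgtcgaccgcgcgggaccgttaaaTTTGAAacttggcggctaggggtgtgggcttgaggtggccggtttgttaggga
MAD2L1: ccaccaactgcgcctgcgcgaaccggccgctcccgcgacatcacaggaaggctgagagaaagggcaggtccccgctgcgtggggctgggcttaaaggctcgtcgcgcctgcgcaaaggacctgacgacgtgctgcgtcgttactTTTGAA
CDC20: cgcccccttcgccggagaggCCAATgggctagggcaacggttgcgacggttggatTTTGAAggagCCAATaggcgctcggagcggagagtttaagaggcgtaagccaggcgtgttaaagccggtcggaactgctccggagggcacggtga
ZWILCH: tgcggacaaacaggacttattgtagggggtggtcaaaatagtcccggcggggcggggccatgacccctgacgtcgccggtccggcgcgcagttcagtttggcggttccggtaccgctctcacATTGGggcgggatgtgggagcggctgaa
MAD1L1: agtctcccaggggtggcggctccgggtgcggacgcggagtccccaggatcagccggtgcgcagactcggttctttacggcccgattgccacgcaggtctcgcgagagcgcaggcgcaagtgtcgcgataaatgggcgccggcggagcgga
Counted from the start, the CHR began at base -23 in BUB1B, at -65 in CDC20, at 2 in BUB1 and at 25 in MAD2L1. CDC20 held CCAAT at -100 and -55, on either side of its CHR, and a CHR of the other strand farther out at -178. BUB1 held CCAAT at -54 and, on the other strand, at -79. In the 250 bases before the start, BUB1B, CDC20 and ZW10 (at -224) held a CHR, 3 of 7 members, against 14.3% of the 35116 promoters in the table. With the 50 bases after the start included, BUB1 and MAD2L1 were added, 5 of 7 members against 16.4% of all promoters. CCAAT stood in the 250 bases before the start of BUB1, MAD2L1, CDC20 and ZW10, against 32.0% of promoters, and ZWILCH held it only after the start, at base 3 on the other strand. The E2F words TTTGGCGC and TTTCCCGC were in none of the 7 windows, and in 0.55% and 1.39% of all promoters over the 250 bases before the start. A match describes letters only, and no match says nothing about a factor.

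Total counts were 14650839 to 18091755 per PC-3 sample, 11923105 to 14741883 per LNCaP sample, 19909616 to 20976950 per CT1258 control and 7203534 to 8325867 per CT1258 sample with PDA-66. Every CT1258 control was thus deeper than every treated CT1258 sample, so depth and treatment cannot be told apart there. This holds for every CT1258 comparison with DMSO. One library stood apart. LNCaP PDA-66 12 h replicate 2 lay at a mean distance of 2.34 from its group (log2 units over the 500 genes that differ most in each pair), against 1.74 and 1.69 for the other samples, and LNCaP results are therefore also given without it. LNCaP expressed the luminal prostate markers KLK3 and KLK2, at 23.7 and 255 CPM (TMM-normalised counts scaled to library size) or more. PC-3 had KLK2 at 0 in every sample, and its HOXB13 was at 751 to 811 CPM in the controls, 243 to 259 CPM at 12 h and 408 to 451 CPM at 24 h. The 4 epithelial markers of PC-3 had median log2 fold changes of -0.75 and -0.80, and 2 of 4 fell at 12 h and 3 of 4 at 24 h (adjusted p under 0.001, edgeR). CT1258 had TMPRSS2 at 0 in all 9 samples and HOXB13 and EPCAM at 1.10 and 0.262 CPM or less, while the stromal marker LUM was at 262 to 429 CPM, so the markers named here did not show its prostate epithelial label (KRT8, KRT18 and CDH1 were not analysed here). The 3 stromal markers listed for CT1258 summed to 345 to 411 CPM in the controls, 355 to 453 CPM at 12 h and 376 to 405 CPM at 24 h, and COL1A1 was at 0 in 6 samples. LUM carried that sum, while COL1A2 was at 83.3 to 89.3 CPM in the controls, 21.9 to 25.8 CPM at 12 h and 10.7 to 14.8 CPM at 24 h. Stromal markers in PC-3 summed to 43.1 to 65.5 CPM in the controls and 10.3 to 22.3 CPM with PDA-66, against 19.2 to 29.8 CPM in LNCaP, apart from 126 CPM in 12 h replicate 2. Immune markers, mostly CD68, summed to 103 to 134 CPM in PC-3 controls and 66.2 to 80.0 CPM with PDA-66, and to 16.3 CPM or less elsewhere, with PTPRC at 1.13 CPM or less in every sample. Endothelial markers summed to 12.96 to 18.8 CPM in PC-3 controls and 22.9 to 40.2 CPM in LNCaP controls, and to 4.09 to 9.90 CPM and 4.85 to 14.5 CPM with PDA-66. The part of these markers in the results was not tested.

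**Figure D1:**
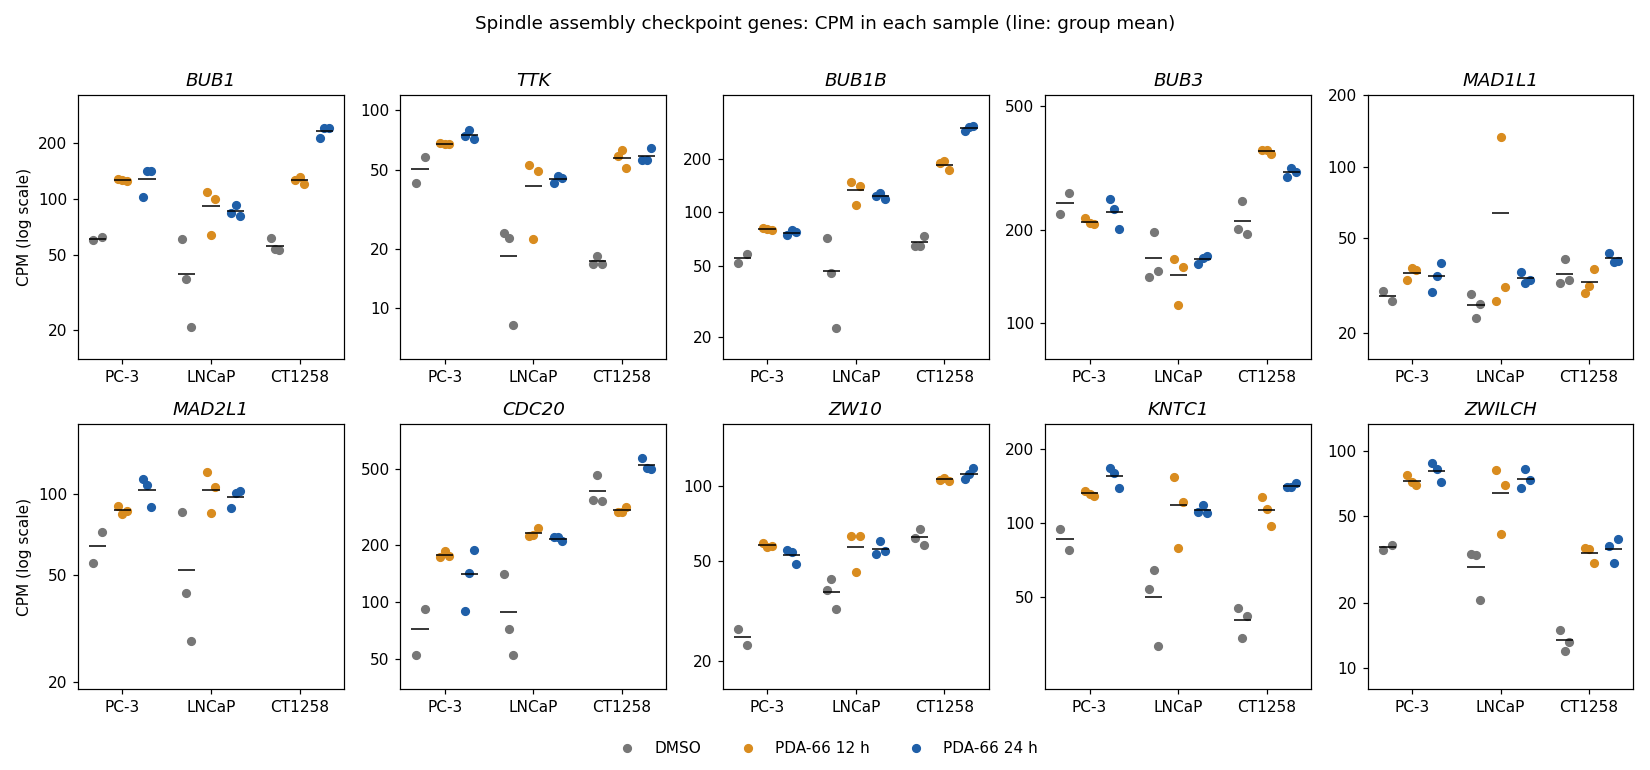
CPM (TMM-normalised, log axis) of each checkpoint gene in every sample, by cell line and treatment, with a horizontal line at the group mean. BUB1 lies at 60.4 and 62.4 CPM in the PC-3 controls and at 102 CPM or more in every treated PC-3 sample, and the single high point of MAD1L1 in LNCaP is 12 h replicate 2 at 134 CPM.

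Many checkpoint genes were higher with PDA-66 in PC-3 and CT1258. In PC-3 at 12 h, 6 of 10 rose (BUB1, BUB1B, CDC20, ZW10, KNTC1 and ZWILCH) and none fell, where 27.6% of the 13777 genes tested passed in either direction and 13% rose. At 24 h, 5 of 10 rose (BUB1, MAD2L1, ZW10, KNTC1 and ZWILCH), where 19.3% passed and 8.88% rose. A gene counted as changed in a cell line at an adjusted p (Benjamini-Hochberg, edgeR's quasi-likelihood test over all genes of the line) under 0.001. In CT1258, 7 of 9 rose at each time (BUB1, BUB1B, BUB3, TTK, ZW10, KNTC1 and ZWILCH) and none fell, where 44.3% of 9886 genes passed at 12 h and 33.8% at 24 h, with 22.2% and 16.6% higher. At an adjusted p under 0.05, 9 members passed in PC-3 at 12 h, where 57% of genes did, and 8 at 24 h, where 49.9% did, all higher. Members had a median log2 fold change of 0.58 (12 h) and 0.77 (24 h) for PC-3, 1.19 and 1.15 for LNCaP and 1.16 and 1.40 for CT1258, beside medians of all genes between -0.01 and 0.03. Leaving out any 1 of the 3 PC-3 samples at 12 h left 3 of the 6 calls there, and BUB1B, CDC20 and KNTC1 then missed the threshold. All treated samples lay above all controls for 9 members in PC-3 at 12 h and 7 at 24 h, against 35.5% and 30.6% of genes, and for 7 and 8 members in CT1258, against 36.1% and 33.1%. BUB3 in PC-3 and CDC20 in CT1258 lay wholly below their controls at 12 h, as 35.4% and 36.6% of genes did, and no member lay wholly below in PC-3 at 24 h, where 31.3% of genes did.

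In LNCaP the controls were scattered, and none of the 10 members passed at either time by edgeR's quasi-likelihood test, where 0.0076% and 0% of 13156 genes did. Unadjusted p was under 0.05 for 9 members at 12 h and 8 at 24 h (30% and 19.8% of all genes). DESeq2 called 2 and 1 members, limma voom with sample quality weights 8 and 8, and the exact test of edgeR 6 at 24 h. For these other tests, here and below, the share of all genes called is not given, so their counts have no background. The same holds for fits that left out 1 sample, except where a share stands beside the count. At an adjusted p under 0.05, BUB1B, CDC20, KNTC1 and ZWILCH were higher at 12 h, where 9.14% of genes passed and 4.52% were higher, and ZWILCH at 24 h, where 2.92% did. All 3 treated samples lay above all 3 controls for 6 members at 12 h and for 9 at 24 h, against 13.5% and 23.1% of genes. Without 12 h replicate 2, adjusted p was under 0.05 for 8 of 10 members at 12 h and 9 of 10 at 24 h, all higher, where 29.1% and 27.9% of genes passed, and ZWILCH was then the 1 member under 0.001 at 12 h (1.96% of genes), with none at 24 h (0.787%). The mean log2 CPM of the G2/M genes ranged from 5.15 to 6.21 over the LNCaP controls, and DMSO replicate 3 was the lowest control for every member but BUB3 and MAD1L1. Without DMSO replicate 3, no member was under 0.05 at either time, where 1.85% and 0.135% of genes were, and unadjusted p was under 0.05 for 8 and 7 members. The log2 fold changes were then smaller for BUB1 (0.89 and 0.81), TTK (0.83 and 0.94) and MAD2L1 (0.69 and 0.60), and for BUB1B, CDC20, KNTC1 and ZWILCH, given with each gene. The calls at 0.05 were also lost at both times without DMSO replicate 2, 12 h replicate 3 or 24 h replicate 3, and at 24 h without 24 h replicate 1 or 2. Over all 9 such fits the count ran from 0 to 8 at 12 h and from 0 to 9 at 24 h, so the LNCaP calls depended on which sample was left out.

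**Figure D2:**
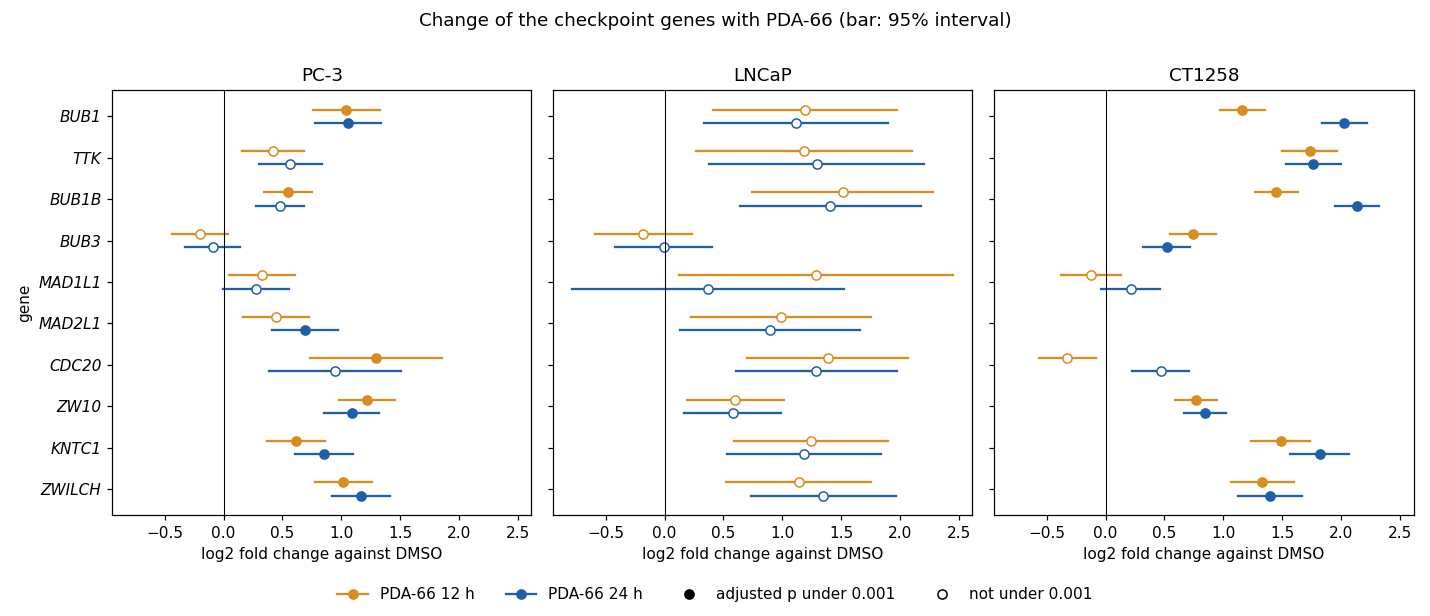
Log2 fold change of each checkpoint gene against DMSO at 12 h and 24 h in PC-3, LNCaP and CT1258, with bars for the 95% interval and filled points where the adjusted p is under 0.001. BUB1B in CT1258 lies at 1.45 and 2.13, BUB3 lies near 0 in both human lines, and no LNCaP point is filled.

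Among the kinases, BUB1 rose in PC-3 and CT1258 at both times. BUB1 (GRCh37 chromosome 2, 111395105 to 111435640, minus strand) phosphorylates histone H2A at centromeres and recruits the other BUB proteins. In PC-3 its level was 60.4 and 62.4 CPM in the controls, 128, 127 and 125 CPM at 12 h and 102, 140.3 and 141 CPM at 24 h. LNCaP samples held 61.2, 37.4 and 20.8 CPM in DMSO, 109.5, 64.1 and 100.01 CPM at 12 h and 84.5, 92.6 and 81.5 CPM at 24 h. The groups did not overlap in either human line, but the lowest LNCaP treated sample, 12 h replicate 2, stood only just above the highest control. CT1258 samples held 61.7, 53.9 and 53.4 CPM in DMSO, 127, 131 and 119.9 CPM at 12 h and 211, 239 and 240.0 CPM at 24 h, so each group lay wholly above the one before. The log2 fold change was 1.04 ± 0.13 (SE, adjusted p = 2.18e-05) and 1.06 ± 0.13 (3.12e-05) in PC-3 at 12 h and 24 h, and 1.16 ± 0.09 (1.05e-07) and 2.03 ± 0.09 (1.17e-09) in CT1258. In LNCaP it was 1.196 ± 0.349 (0.0613) and 1.11 ± 0.35 (0.115), and without 12 h replicate 2 it was 1.40 ± 0.31 (0.00815) and 1.12 ± 0.28 (0.0164).

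TTK, the kinase that starts checkpoint signalling at the kinetochore (chromosome 6, 80713604 to 80752244, plus strand), rose in CT1258. CT1258 controls held 16.8, 18.4 and 16.6 CPM, against 58.7, 62.6 and 50.9 CPM at 12 h and 56.0, 55.7 and 64.2 CPM at 24 h. Every treated sample lay above every control, with log2 fold changes of 1.73 ± 0.11 (1.80e-08) and 1.76 ± 0.11 (2.59e-08). PC-3 controls held 42.9 and 58.3 CPM, against 67.3 to 68.2 CPM at 12 h and 71.2 to 79.6 CPM at 24 h, a log2 fold change of 0.42 ± 0.12 (0.0102) and 0.57 ± 0.12 (0.00201), past 0.05 but not 0.001. In LNCaP the controls held 24.0, 22.7 and 8.26 CPM, the 12 h samples 53.1, 22.3 and 49.4 CPM and the 24 h samples 42.7 to 46.4 CPM. The 12 h replicate 2 lay among the controls, and the log2 fold change of 1.18 ± 0.41 (0.0963) was 1.49 ± 0.31 (0.00634) without it. At 24 h it was 1.29 ± 0.41 (0.119), and 1.29 ± 0.29 (0.00964) without that library.

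Of the inhibitory complex, BUB1B rose in CT1258 at both times and in PC-3 at 12 h. BUB1B (chromosome 15, 40453224 to 40513324, plus strand) encodes BUBR1, which binds CDC20 directly, and 10.6% of its exon bases are shared on the same strand with the readthrough gene BUB1B-PAK6 or PAK6, so reads there could be split in counting. CT1258 controls held 64.9, 64.6 and 74.1 CPM, the 12 h samples 189, 194 and 174 CPM and the 24 h samples 287, 303 and 305 CPM. The 3 CT1258 groups were wholly separate, the 24 h samples highest, with log2 fold changes of 1.45 ± 0.09 (1.03e-08) and 2.13 ± 0.09 (7.80e-10). PC-3 held 52.2 and 58.2 CPM in the controls, 82.2, 80.4 and 79.6 CPM at 12 h and 74.3, 79.3 and 77.7 CPM at 24 h. These groups did not overlap either, but the difference was smaller, 0.55 ± 0.10 (0.000296) at 12 h, where it rose, and 0.48 ± 0.10 (0.00105) at 24 h, just outside the threshold. LNCaP controls held 71.6, 45.8 and 22.4 CPM, against 149, 109.7 and 141 CPM at 12 h and 124, 129 and 118 CPM at 24 h. Every treated LNCaP sample was above every control, with log2 fold changes of 1.51 ± 0.34 (0.0273) and 1.41 ± 0.34 (0.0598), of 1.64 ± 0.32 (0.00495) and 1.41 ± 0.30 (0.00792) without 12 h replicate 2, and of 1.18 ± 0.24 (0.0518) and 1.08 ± 0.24 (0.115) without DMSO replicate 3.

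BUB3, the WD40 protein that carries BUB1 and BUB1B to the kinetochore (chromosome 10, 124913918 to 124929983, plus strand), rose in CT1258 and passed in neither human line. CT1258 controls held 201, 247 and 194 CPM, the 12 h samples 362, 362 and 351 CPM and the 24 h samples 297, 317 and 308 CPM. BUB3 rose there at both times without overlap, by 0.74 ± 0.09 (8.27e-06) and 0.52 ± 0.09 (0.000263) on the log2 scale, and the 24 h call was lost in 5 of 9 fits that each left out 1 sample. PC-3 samples held 225 and 262 CPM in DMSO, 218, 209.7 and 209 CPM at 12 h and 251, 233 and 202 CPM at 24 h, with log2 fold changes of -0.20 ± 0.11 (0.136) and -0.09 ± 0.11 (0.501). In LNCaP the ranges were 141 to 197 CPM in DMSO, 115 to 161 CPM at 12 h and 156 to 165 CPM at 24 h, with log2 fold changes of -0.18 ± 0.18 (0.533) and -0.01 ± 0.18 (0.990), and of -0.04 ± 0.14 and -0.00 ± 0.12 without 12 h replicate 2. The 95% interval in LNCaP at 24 h ran from -0.42 to 0.40. Tested directly, the difference in response at 24 h, CT1258 minus LNCaP, was 0.56 ± 0.20 (0.0483). Its adjusted p ran up to 0.175 over fits that each left out 1 sample.

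MAD2L1, which is folded into the inhibitory complex from MAD1L1-bound templates (chromosome 4, 120976778 to 120988013, minus strand), was measured in the human lines. PC-3 samples held 55.4 and 72.0 CPM in DMSO, 89.9, 83.9 and 85.8 CPM at 12 h and 113, 107 and 88.7 CPM at 24 h. All treated samples were above both controls, and MAD2L1 rose at 24 h by 0.69 ± 0.13 (0.000741), a call lost in 6 of 8 fits that each left out 1 sample, while the 12 h value was 0.44 ± 0.13 (0.0103). LNCaP samples held 85.2, 42.8 and 28.3 CPM in DMSO, 84.3 to 120.3 CPM at 12 h and 88.1 to 102 CPM at 24 h, so that 12 h replicate 2 lay just under DMSO replicate 1, with log2 fold changes of 0.99 ± 0.34 (0.0982) and 0.89 ± 0.34 (0.182). Without 12 h replicate 2 they were 1.12 ± 0.33 (0.0276) and 0.90 ± 0.30 (0.0475).

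MAD1L1, the kinetochore scaffold for MAD2L1 (chromosome 7, 1855429 to 2272878, minus strand), passed in none of the comparisons with DMSO by edgeR at 0.001. In the annotation 99.7% of its exon bases are shared on the same strand with the gene ENSG00000286192. The methods describe counting over RefSeq genes for the human lines. Whether that gene was among them was not checked, so any effect on the MAD1L1 counts is not known. PC-3 samples held 29.98 and 27.1 CPM in DMSO, 33.4 to 37.5 CPM at 12 h and 29.6 to 39.5 CPM at 24 h, log2 fold changes of 0.33 ± 0.13 (0.0430) and 0.27 ± 0.13 (0.0916). CT1258 samples held 32.3, 40.7 and 33.4 CPM, then 29.4 to 37.0 CPM and 39.9 to 43.3 CPM, with log2 fold changes of -0.12 ± 0.12 (0.366) and 0.21 ± 0.12 (0.127). LNCaP held 29.1, 23.1 and 26.4 CPM in DMSO, 36.0, 32.4 and 33.3 CPM at 24 h, and 27.3, 134 and 31.2 CPM at 12 h. The value of 134 CPM belonged to 12 h replicate 2 alone and was 4.91 times the lowest sample of its group. With that library the log2 fold change at 12 h was 1.29 ± 0.52 (0.137), and without it 0.16 ± 0.13 (0.377). At 24 h it was 0.37 ± 0.52 (0.759), and 0.37 ± 0.12 (0.0365) without it.

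CDC20, the APC/C activator that the checkpoint restrains (chromosome 1, 43824652 to 43828874, plus strand), rose in PC-3 at 12 h and was below its controls in CT1258 at that time. PC-3 controls held 52.7 and 92.3 CPM, the 12 h samples 173, 185 and 175 CPM and the 24 h samples 90.1, 142 and 188 CPM. CDC20 rose at 12 h by 1.29 ± 0.26 (0.000920), without overlap, whereas at 24 h replicate 1 lay between both controls and the value was 0.95 ± 0.26 (0.00835). LNCaP held 141, 71.8 and 52.5 CPM in DMSO, 222, 226 and 245 CPM at 12 h and 219, 219.7 and 209 CPM at 24 h. All treated LNCaP samples were above all controls, with log2 fold changes of 1.39 ± 0.31 (0.0250) and 1.29 ± 0.30 (0.0564), of 1.41 ± 0.30 (0.00706) and 1.29 ± 0.28 (0.00816) without 12 h replicate 2, and of 1.12 ± 0.27 (0.0779) and 1.02 ± 0.27 (0.158) without DMSO replicate 3. CT1258 held 344, 464 and 339.8 CPM in DMSO, 299, 298 and 318 CPM at 12 h and 573, 509 and 504 CPM at 24 h. The 12 h samples lay below and the 24 h samples above all controls, with log2 fold changes of -0.33 ± 0.11 (0.0194) and 0.47 ± 0.11 (0.00253). Neither passed 0.001 by edgeR. CDC20 rose in CT1258 between 12 h and 24 h by 0.79 ± 0.11 (0.000473).

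The RZZ complex, which brings MAD1L1-MAD2L1 and dynein to unattached kinetochores, rose as a whole in 2 lines. ZW10 (chromosome 11, 113603909 to 113644457, minus strand), KNTC1 (chromosome 12, 123011793 to 123110943, plus strand) and ZWILCH (chromosome 15, 66797297 to 66842468, plus strand) passed at both times in both PC-3 and CT1258. ZWILCH held 34.9 and 37.0 CPM in PC-3 controls, 77.3, 71.5 and 69.5 CPM at 12 h and 88.0, 82.3 and 71.6 CPM at 24 h, log2 fold changes of 1.02 ± 0.11 (7.36e-06) and 1.17 ± 0.11 (4.76e-06). CT1258 samples held 15.1, 12.1 and 13.2 CPM of ZWILCH in DMSO, 35.7, 35.3 and 30.6 CPM at 12 h and 36.5, 30.4 and 39.3 CPM at 24 h, 1.33 ± 0.13 (6.53e-07) and 1.40 ± 0.13 (7.94e-07). LNCaP samples held 33.4, 33.3 and 20.6 CPM of ZWILCH in DMSO, 81.7, 41.2 and 69.3 CPM at 12 h and 67.1, 82.3 and 73.2 CPM at 24 h. In all 3 lines the treated samples were above all controls, and in LNCaP the log2 fold changes were 1.14 ± 0.28 (0.0345) and 1.35 ± 0.28 (0.0387), or 1.38 ± 0.19 (0.000969) and 1.35 ± 0.17 (0.00109) without 12 h replicate 2. Without DMSO replicate 3 they were 0.94 ± 0.29 (0.134) and 1.15 ± 0.29 (0.147). Of the ZWILCH exon bases 10.7% lie opposite LCTL or RPL4, and whether counting used strand is not given in the sources used here.

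ZW10 had the second highest log2 fold change of the 10 members in PC-3 at 12 h, after CDC20. Its controls held 26.7 and 23.1 CPM there, against 56.9 to 59.3 CPM at 12 h and 48.8 to 55.4 CPM at 24 h, log2 fold changes of 1.22 ± 0.11 (1.21e-06) and 1.09 ± 0.11 (6.27e-06). CT1258 controls ran from 57.9 to 67.6 CPM and treated samples from 105 to 118 CPM, 0.77 ± 0.08 (2.34e-06) and 0.84 ± 0.08 (1.90e-06). LNCaP controls ran from 32.1 to 42.4 CPM, the 12 h samples from 45.1 to 63.2 CPM and the 24 h samples from 53.5 to 60.1 CPM, 0.60 ± 0.18 (0.0703) and 0.58 ± 0.18 (0.121). Controls and treated samples were apart in each line, and without 12 h replicate 2 the LNCaP values were 0.75 ± 0.13 (0.00232) and 0.58 ± 0.11 (0.00581).

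KNTC1 was likewise apart from its controls in every line. In PC-3 it went from 77.7 to 94.7 CPM in DMSO to 129 to 135 CPM at 12 h and 139 to 168 CPM at 24 h, 0.61 ± 0.11 (0.000498) and 0.85 ± 0.11 (5.86e-05). In CT1258 it went from 34.0 to 44.9 CPM to 97.03 to 128 CPM and 140.2 to 145 CPM, 1.49 ± 0.12 (1.22e-07) and 1.82 ± 0.12 (3.38e-08). LNCaP ranges were 31.6 to 64.2 CPM, 79.0 to 154 CPM and 109.97 to 119 CPM, 1.24 ± 0.29 (0.0314) and 1.18 ± 0.29 (0.0627), and without 12 h replicate 2 the values were 1.47 ± 0.23 (0.00157) and 1.19 ± 0.21 (0.00366). Without DMSO replicate 3 they were 1.00 ± 0.27 (0.107) and 0.94 ± 0.27 (0.201).

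Between 12 h and 24 h of PDA-66 the human lines gave no called member by edgeR. In PC-3 the values ran from -0.35 ± 0.22 (CDC20, adjusted p = 0.366) to 0.25 ± 0.11 (MAD2L1, 0.192), where 1.41% of genes passed. Unadjusted p was under 0.05 for 2 members and for 24.5% of genes, DESeq2 called 0 and limma voom 2. In LNCaP they ran from -0.92 ± 0.52 (MAD1L1, 0.643) to 0.21 ± 0.27 (ZWILCH, 0.795), where 0% of genes passed, with 0 members at an unadjusted p under 0.05 (6.36% of genes) and 0 called by DESeq2 or limma voom, and without 12 h replicate 2 they were 0.21 for MAD1L1 and -0.03 for ZWILCH. In CT1258, BUB1 (0.87 ± 0.09, 5.69e-05), BUB1B (0.68 ± 0.08, 0.000145) and CDC20 were higher at 24 h than at 12 h, 3 of 9 where 2.13% of genes passed and 0.85% rose. BUB1 and BUB1B were already above their controls at 12 h, whereas CDC20 was below its controls then. The other 6 ran from -0.22 ± 0.09 (BUB3, 0.113) to 0.33 (KNTC1 and MAD1L1), and without 12 h replicate 1 no member passed in that comparison.

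Levels between genes were compared as CPM per kilobase of the MANE Select transcript, in the human lines. CDC20 was highest in all 6 human groups, at 43.97 ± 16.95 (SD, n = 2) in PC-3 controls and 53.5 ± 28.1 (n = 3) in LNCaP controls. BUB3 came next in both control groups, at 31.6 ± 3.4 and 21.0 ± 4.0 per kilobase. This order rests on the transcript lengths used. In CPM without length, BUB3 was above CDC20 in the controls, with means of 244 against 72.5 in PC-3 and 162 against 88.3 in LNCaP. In PC-3 controls the CDC20 range of 32.0 to 56.0 overlapped the BUB3 range of 29.2 to 34.1, whereas in LNCaP controls 31.8 to 85.2 did not overlap 18.3 to 25.6. With PDA-66 at 12 h, CDC20 stood at 108 ± 4 per kilobase in PC-3 and 140.0 ± 7.6 in LNCaP. The next genes, BUB1 in PC-3 (33.6 ± 0.4) and BUB1B in LNCaP (36.3 ± 5.6), did not overlap it. The lowest levels in controls were those of ZW10 in PC-3 (8.67 ± 0.87) and TTK in LNCaP (6.18 ± 2.95). TTK overlapped KNTC1, the next in order, whereas ZW10 at 8.05 to 9.28 lay below ZWILCH at 9.71 to 10.3.

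Between the human lines, in DMSO, none of the 10 members passed 0.001 by edgeR between PC-3 and LNCaP, where 40.8% of 15018 genes did. Unadjusted p was under 0.05 for 5 members and 66.9% of genes, DESeq2 called 2 members and limma voom 3. At 0.05, where 63.6% of genes passed, TTK was higher in PC-3 by 1.49 ± 0.35 (0.00139), KNTC1 by 0.82 ± 0.26 (0.0106) and BUB3 by 0.62 ± 0.17 (0.00475), and ZW10 was lower by -0.57 ± 0.17 (0.00871). All 4 passed 0.001 without LNCaP 12 h replicate 2, a fit for which the share of all genes is not given. The remaining baseline differences, PC-3 minus LNCaP, were 0.65 (BUB1), 0.33 (ZWILCH), 0.32 (MAD2L1), 0.27 (BUB1B), 0.15 (MAD1L1) and -0.26 (CDC20). The response itself, tested as the difference of both log2 fold changes, passed 0.05 for 0 of 10 members at 12 h by edgeR, where 13.7% of genes passed, and for 0 at 24 h, where 5.99% did. Values ran from -0.92 ± 0.39 (BUB1B, 0.127) to 0.67 ± 0.23 (ZW10, 0.0615) at 12 h and from -0.89 ± 0.39 (BUB1B, 0.209) to 0.54 ± 0.23 (ZW10, 0.187) at 24 h. Unadjusted p was under 0.05 for 2 members at each time, where 29.9% and 20.2% of genes were, DESeq2 called 1 and 0 and limma voom 4 and 3. Without LNCaP 12 h replicate 2, 4 members passed at 12 h. The share of all genes in that fit is not given, so this count has no background.

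Responses in the canine and the human lines were compared in a fit over the 11736 genes tested under a shared name. Against PC-3 at 12 h the response passed 0.05 for 5 of 9 members, where 30.1% of genes passed, and at 24 h for 5 of 9, where 21.2% did. Against LNCaP it passed for 3 of 9 at 12 h (40.2% of genes) and 2 of 9 at 24 h (21.1%), shares below and near those of all genes. The response of CDC20 in CT1258 at 12 h was lower than in PC-3 by -1.60 ± 0.39 (0.00328) and lower than in LNCaP by -1.66 ± 0.37 (0.00102), while BUB3 responded more in CT1258, by 0.96 ± 0.21 (0.00127) and 0.97 ± 0.20 (0.000591). BUB1B at 24 h responded more in CT1258 than in PC-3 by 1.66 ± 0.33 (0.000791). ZW10 and ZWILCH passed in none of these 4 comparisons, with differences from -0.44 ± 0.20 to 0.33 ± 0.30. Counts for the 2 species were made against different genomes, and orthologues were matched by name only. Leaving out 1 sample moved the counts to 2 to 6 and 1 to 5 against PC-3 and to 2 to 4 and 0 to 4 against LNCaP.

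The ratio of CDC20 to BUB1B was followed between groups. It is a ratio of CPM with no correction for transcript length, so its size does not compare the levels of both genes. In CT1258 controls the CPM ratio was 5.29, 7.18 and 4.58 (mean 5.69 ± 1.34 SD, n = 3). It was 1.65 ± 0.16 at 12 h and 1.78 ± 0.19 at 24 h, with no overlap with the controls at either time. In PC-3 it was 1.01 and 1.59 in the controls, 2.20 ± 0.10 at 12 h and 1.81 ± 0.61 at 24 h, where the values ran from 1.21 to 2.42. LNCaP ratios were 1.96 ± 0.39, 1.76 ± 0.28 and 1.75 ± 0.04, all overlapping. The treated samples of all 3 lines thus lay between 1.21 and 2.42, and the CT1258 controls stood above every other sample. The ratio of CDC20 to BUB3 moved otherwise. In LNCaP it was 0.57 ± 0.37 in the controls, 1.65 ± 0.30 at 12 h and 1.34 ± 0.07 at 24 h, with no overlap with the controls, and in CT1258 it was 1.78 ± 0.09, 0.85 ± 0.05 and 1.72 ± 0.18. In PC-3 it was 0.29 ± 0.08, 0.84 ± 0.05 and 0.63 ± 0.29. CDC20 to MAD2L1 in LNCaP was 1.73 ± 0.11, 2.28 ± 0.42 and 2.24 ± 0.22. The lowest 12 h value there, 1.84, lay under the highest control, 1.86, so these groups overlapped. In PC-3 this ratio was 1.12 ± 0.23, 2.06 ± 0.14 and 1.41 ± 0.67, and the 24 h values, from 0.80 to 2.12, overlapped the controls. These ratios were chosen after the values were seen and were not tested.

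**Figure D3:**
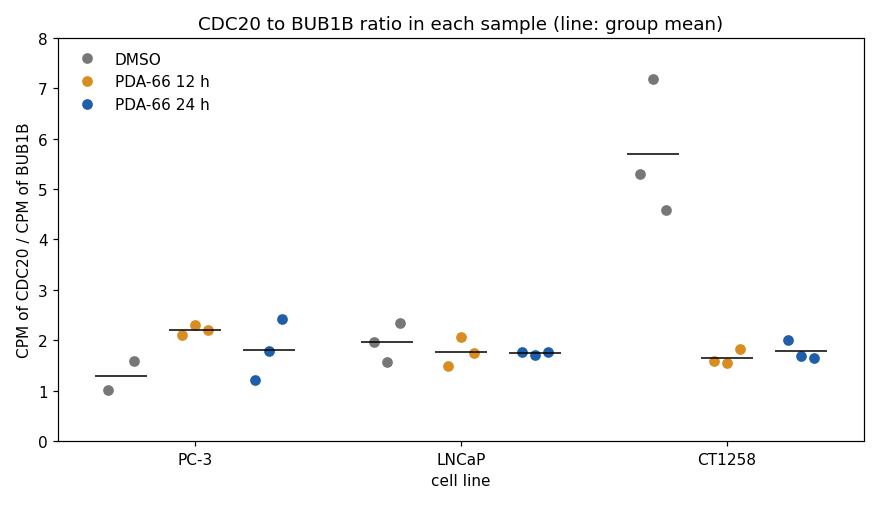
CPM of CDC20 divided by CPM of BUB1B in each sample (linear axis from 0), by cell line and treatment, with a line at the group mean. The 3 CT1258 controls lie at 4.58 to 7.18 and all treated samples of the 3 lines at 1.21 to 2.42.

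Many genes of the G2/M list (Seurat's cell cycle list, members left out) were also higher with PDA-66. At 12 h, 12 of 49 rose and 1 fell in PC-3, where 13% of genes rose. In CT1258 35 of 43 rose and 1 fell, where 22.2% of genes rose. In LNCaP 0 of 49 passed 0.001 and 29 were higher past 0.05, where 4.52% of genes were. Each member was therefore set against the mean log2 CPM of that list in its own sample. That mean was 6.33 in PC-3 controls and 6.79 at both times, 5.78 in LNCaP controls, 7.09 at 12 h and 6.93 at 24 h, and 5.89 in CT1258 controls, 7.13 at 12 h and 7.43 at 24 h. In PC-3 at 12 h, BUB1 (by 0.58), CDC20 (0.88), ZW10 (0.76) and ZWILCH (0.55) exceeded their control values of this difference in every sample, where 11.3% of genes did, and BUB3 changed by -0.66, under its controls in every sample, where 60.3% of genes were. At 24 h BUB1, ZW10 and ZWILCH exceeded their controls (7.37% of genes) and BUB3 was under them (58.3%). In LNCaP no member exceeded its controls at 12 h (0.456% of genes), and BUB1B (0.42) and TTK (0.29) did at 24 h (0.684%). BUB3 and ZW10 were under their controls at both times there, with MAD1L1 at 24 h, where 68.9% and 89.9% of genes were. All these values are changes from the controls of the same line, not positions above or below the list. A gene with a log2 fold change of 0 lies lower relative to a list that went up, so these last shares cover most genes.

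In CT1258, BUB1B (0.22) and TTK (0.49) exceeded their control values at 12 h, where 2.69% of genes did, and BUB1 (0.49), BUB1B (0.60), TTK (0.22) and KNTC1 (0.29) at 24 h, where 1.02% did. BUB3, MAD1L1, CDC20 and ZW10 were under theirs at both times (87.6% and 95.3% of genes), and CDC20 changed by -1.55 and -1.06. In level CDC20 stayed over the list mean, by 2.67 in the controls, 1.12 at 12 h and 1.61 at 24 h. Relative to the list, ZW10 thus changed upward in PC-3 and downward in LNCaP and CT1258, although its own log2 fold change was positive in all 3 lines. These changes are descriptions without a test. The S phase list had median log2 fold changes of 0.88 (12 h) and 0.91 (24 h) for PC-3, 1.13 and 1.03 for LNCaP and 0.96 and 0.53 for CT1258, and the part of cell cycle position in the results was not tested beyond this.

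**Figure D4:**
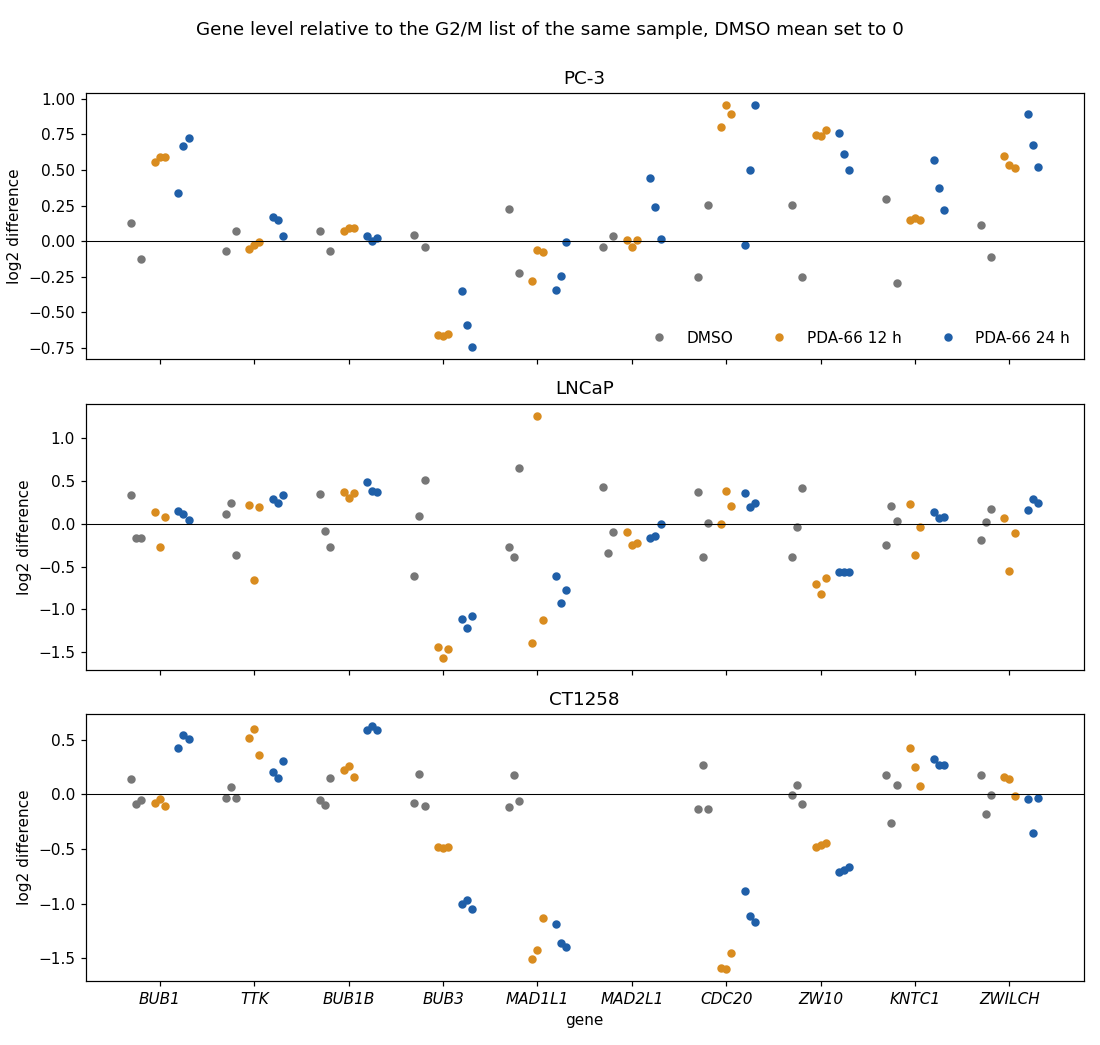
Log2 CPM of each checkpoint gene minus the mean log2 CPM of the G2/M list in the same sample, with the control mean set to 0, for every sample of each cell line. CDC20 in CT1258 lies at about -1.55 at 12 h and -1.06 at 24 h, and ZW10 lies above 0 in treated PC-3 samples and below 0 in treated LNCaP and CT1258 samples.

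Within each line most members went up and down together over samples. As a description over samples that share treatment groups, the median Pearson r of log2 CPM with the other members was 0.58 to 0.90 in PC-3 (8 samples), 0.86 to 0.94 in LNCaP (9 samples) and 0.80 to 0.96 in CT1258 (9 samples) for all members except those named next. BUB3 had -0.48 in PC-3 and -0.03 in LNCaP, MAD1L1 0.08 in LNCaP and 0.18 in CT1258, and CDC20 0.22 in CT1258. Over all 26 samples, centred within each line, the genes most like BUB1B of 8265 were KIF15 (r = 0.98), PRC1 (0.98) and CCNA2 (0.98). Those most like CDC20 were BUD13 (0.88), YWHAH (0.88) and PLK1 (0.87).

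Of 16 partners, which form the checkpoint's docking platform or relay or switch off its signal, 6 rose and 1 (PPP2R5A, -0.77 ± 0.10) fell in PC-3 at 12 h, and 5 rose at 24 h (median log2 fold change 0.44 and 0.47), beside the 27.6% and 19.3% of all genes that passed. KNL1 (CASC5 in the tables), the scaffold that binds BUB1 and BUB3, was first in both PC-3 and CT1258, with 1.64 ± 0.21 and 1.49 ± 0.21 in PC-3 and 2.55 ± 0.12 and 2.90 ± 0.12 in CT1258. In PC-3 it was followed by SPC25, of the NDC80 complex (0.95 ± 0.19 and 1.38 ± 0.19), and by HASPIN (GSG2 in the tables), the histone H3 kinase (0.93 ± 0.13), at 12 h and TRIP13, which takes the inhibitory complex apart (0.94 ± 0.11), at 24 h. Of the 14 partners tested in CT1258, 10 rose and 2 fell at 12 h (SPC24, -1.06 ± 0.16, and ZWINT, -0.53 ± 0.10), and 10 rose at 24 h (median 0.98 and 1.02), beside the 44.3% and 33.8% of all genes that passed, with NDC80 at 1.73 ± 0.12 and 1.87 ± 0.12, HASPIN at 1.49 ± 0.09 at 12 h and NUF2 at 1.94 ± 0.11 at 24 h. In LNCaP 0 of 16 passed 0.001 by edgeR, with medians of 1.39 and 1.08, and 11 at 12 h and 2 at 24 h passed 0.05, all higher, beside 9.14% and 2.92% of all genes.

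The APC/C list holds subunits of the complex on which the checkpoint acts, its regulators and its substrates. In PC-3, 3 of 22 passed at each time, a smaller share than the 27.6% and 19.3% of all genes. CCNA2, cyclin A2 (0.94 ± 0.10 and 1.01 ± 0.10), and ESPL1, the protease separase (0.91 ± 0.12 and 0.80 ± 0.12), rose, and the subunit ANAPC16 fell, with -0.97 ± 0.11 and -0.84 ± 0.11. In CT1258, 10 of 19 rose and 4 fell at 12 h, and 12 rose and 3 fell at 24 h, beside 44.3% and 33.8% of all genes. CCNB1, cyclin B1, whose destruction lets cells leave mitosis, led with 3.01 ± 0.10 and 3.71 ± 0.10. FBXO5, the inhibitor EMI1 (1.94 ± 0.11), rose and the RING subunit ANAPC11 fell (-1.59 ± 0.19) at 12 h, and CCNA2 (2.08 ± 0.08) and PTTG1, securin (1.49 ± 0.15), rose at 24 h. In LNCaP 0 of 22 passed 0.001 by edgeR, with 4 and 2 past 0.05, all higher, beside 9.14% and 2.92% of all genes. List medians were 0.24 (12 h) and 0.17 (24 h) for PC-3, 0.35 and 0.28 for LNCaP and 0.68 and 0.87 for CT1258, in each case below those of the checkpoint genes.

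**Figure D5:**
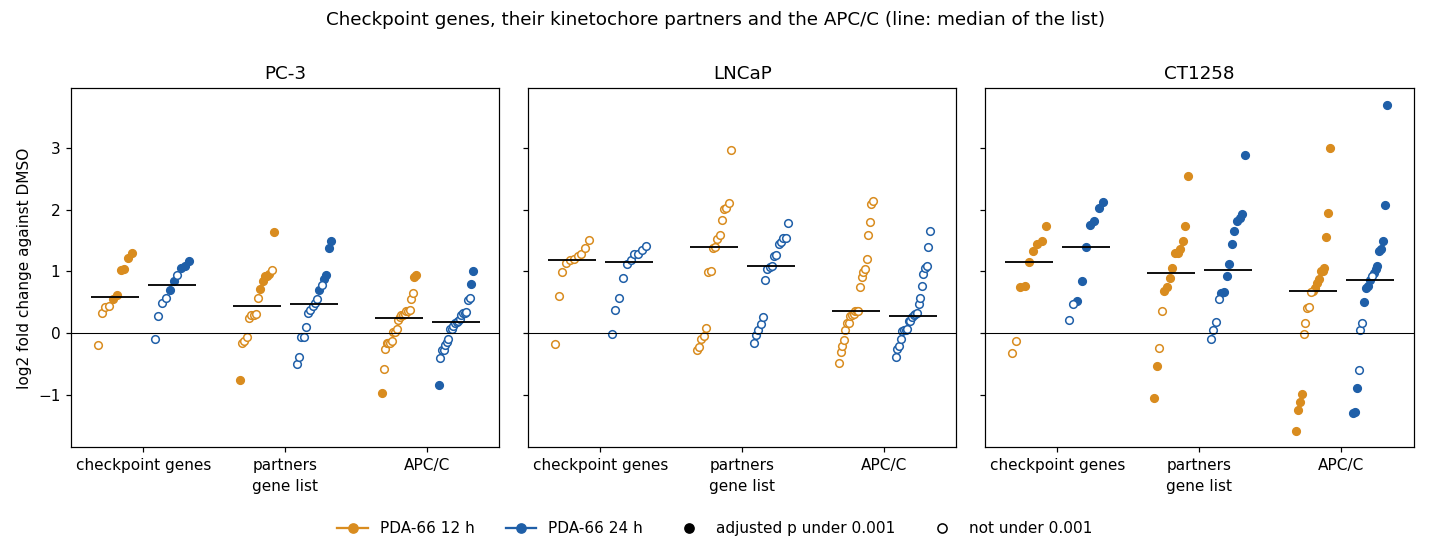
Log2 fold change against DMSO of the checkpoint genes, their 16 kinetochore partners and 22 APC/C genes at 12 h and 24 h in each cell line, 1 point per gene, filled where the adjusted p is under 0.001, with a line at the list median. The highest filled partner is KNL1 in CT1258 at 2.90, under an open point of SPC24 in LNCaP at 2.97, and the highest APC/C gene is CCNB1 in CT1258 at 3.71.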

How the data were processed

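Poly(A) RNA from the 3 cultured lines was read in single 75 bp reads. The deposited values are raw read counts per gene, which the authors made without normalisation, in 1 table per cell line. The submitters' processing notes name STAR 2.3.1s, BWA, edgeR 3.14.0, hg19 and CanFam3.1. Whether counting used strand, and how reads shared by genes were treated, is not given in the sources used here. The methods describe 3 independent biological replicates per group. PC-3 control replicate 1 was not analysed here, and 2 PC-3 samples at 12 h (P12-1 and P12-2) carry no replicate number because the labels give 1 name to both.

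Counts were filtered (filterByExpr), normalised by TMM and tested with edgeR 4.0.16 (quasi-likelihood, Benjamini-Hochberg over all genes tested) in R 4.3.3, in 1 fit per cell line, a joint fit of the human lines and a fit of all 3 lines over shared gene names. The adjusted p threshold was 0.001 within a line and between the human controls, and 0.05 for differences in response. CPM were TMM-normalised, with a prior count of 0.5 on the log2 scale. Alternatives were DESeq2 1.42.0, limma 3.58.1 voom with quality weights, edgeR's exact test, other size factors, no filter, the other threshold, a replicate block and leaving out each sample. Leaving out each PC-3 control and thinning the CT1258 controls were added after seeing the data. Scripts were tested on simulated data.

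All 10 members were named in each cell line, with the 3 called genes of largest absolute log2 fold change per partner and APC/C list and the 3 genes most like BUB1B and CDC20. PPP2R5A, SPC24 and ZWINT were named after their values were seen. The members and lists were chosen with earlier results of these data known. Gene positions are those of GRCh37 (hg19).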

Additional observations from a re-analysis of the deposited data

Results flagged for a closer look

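Responses to PDA-66 that differed between cell lines are listed as the difference of both log2 fold changes against DMSO (first line minus second), with its SE and edgeR adjusted p. At 12 h, CT1258 minus PC-3 was 0.92 ± 0.33 for BUB1B (0.0358), 0.96 ± 0.21 for BUB3 (0.00127), -1.60 ± 0.39 for CDC20 (0.00328), 0.89 ± 0.31 for KNTC1 (0.0300) and 1.33 ± 0.40 for TTK (0.0137). At 24 h it was 0.98 ± 0.35 for BUB1 (0.0449), 1.66 ± 0.33 for BUB1B (0.000791), 0.62 ± 0.21 for BUB3 (0.0359), 0.98 ± 0.31 for KNTC1 (0.0246) and 1.21 ± 0.40 for TTK (0.0331). CT1258 minus LNCaP at 12 h was 0.97 ± 0.20 for BUB3 (0.000591), -1.66 ± 0.37 for CDC20 (0.00102) and -1.34 ± 0.48 for MAD1L1 (0.0282). At 24 h it was 0.94 ± 0.33 for BUB1 (0.0436) and 0.56 ± 0.20 for BUB3 (0.0483).

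Over the 26 fits that each left out 1 sample, CDC20 at 12 h ran from -2.13 to -1.23 against PC-3 and from -2.28 to -1.39 against LNCaP, with adjusted p of at most 0.0420 and 0.00485. BUB3 at 12 h kept an adjusted p of at most 0.0163 and 0.00333, and BUB1B against PC-3 at 24 h of at most 0.00934. The other 10 differences missed 0.05 in at least 1 such fit. That of MAD1L1 was -0.24 (0.325) without LNCaP PDA-66 12 h replicate 2.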

How the results depend on the processing

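Counts of called members changed by more than 1.5 times under these alternatives. The shares of all genes called by limma voom, DESeq2, the exact test or without the filter are not given here. Those counts of members therefore cannot be set against a background. With limma voom, 2 passed in PC-3 between 24 h and 12 h, 8 in LNCaP at 12 h, 8 at 24 h, 6 in CT1258 between 24 h and 12 h, 4 and 3 between the responses of PC-3 and LNCaP at 12 h and 24 h, 3 between the human controls and 4 between CT1258 and LNCaP at 24 h. DESeq2 called 2 in LNCaP at 12 h and 1 at 24 h, 1 between the human responses at 12 h and 2 between the human controls, and edgeR's exact test called 6 in LNCaP at 24 h. With no filter, 1 passed between the human controls, 3 between CT1258 and PC-3 at 24 h and 0 between CT1258 and LNCaP at 24 h. At 0.05, 8 passed in PC-3 at 24 h, 4 in LNCaP at 12 h, 1 at 24 h and 4 between the human controls. At 0.001, CT1258 against PC-3 gave 0 at 12 h and 1 at 24 h, and against LNCaP 1 and 0, also without a share of all genes.

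Leaving out 1 sample gave 3 to 6 calls in PC-3 at 12 h, 4 to 7 at 24 h and 0 to 0 between the times, 0 to 1 in LNCaP at 12 h and 0 to 0 in its other comparisons, and 7 to 7, 6 to 8 and 0 to 3 in CT1258 at 12 h, 24 h and between them. Between the human lines it gave 0 to 4 at 12 h, 0 to 1 at 24 h and 0 to 4 in DMSO, with the upper value reached without LNCaP PDA-66 12 h replicate 2. CT1258 against PC-3 gave 2 to 6 and 1 to 5, and against LNCaP 2 to 4 and 0 to 4. Apart from the LNCaP shares printed above, the share of all genes called in these fits is not given. These ranges therefore have no background.

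Some values near 0 changed sign, and the cause was not tested. BUB3 in LNCaP at 24 h was 0.0035 with no filter, 0.012 with voom, 0.16 without DMSO replicate 2 and 0.014 without 24 h replicate 1, and ran down to -0.094 over such fits. In PC-3 at 24 h BUB3 was 0.040 without DMSO replicate 3 and -0.19 without DMSO replicate 2. Between 24 h and 12 h in LNCaP, MAD1L1 was 0.14 with voom and from -1.28 to 0.21 over fits that left out 1 sample, the latter without 12 h replicate 2, and ZWILCH ran from -0.027, without the same library, to 0.42. Between the human controls, CDC20 was 0.060 with voom, 0.09 without PC-3 DMSO replicate 2, -0.71 without PC-3 DMSO replicate 3 and 0.25 without LNCaP DMSO replicate 1, and BUB1B ran from -0.063, without LNCaP DMSO replicate 3, to 0.72. Same-numbered samples did not deviate together (r from -0.40 to 0.16), and the replicate block left the counts at 5 in PC-3 at 24 h, at 0 in LNCaP and at 7, 7 and 3 in CT1258; in PC-3, CDC20 (1.24) passed and MAD2L1 (0.64) did not. Few samples limit precision, most in LNCaP, with a biological coefficient of variation of 0.240 against 0.097 and 0.100.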
